A study of Sus scrofa with 6 samples.

Results

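Translation factors are the proteins that start protein synthesis on a messenger RNA and then lengthen the chain. In initiation, eIF2 brings the initiator tRNA to the small ribosomal subunit, eIF4F binds the mRNA cap and unwinds the leader, and eIF3 ties both to the ribosome. In elongation, eEF1A delivers charged tRNAs and the eEF1B proteins recharge it with GTP. Muscle adjusts its protein mass in part through these steps, above all through growth signalling to the cap-binding proteins and stress signalling to eIF2.

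The genes described here are those whose platform symbol starts with EIF or EEF, without EIF1AX and EIF1AY. The rule found 62 probe sets with 1 such symbol, which stand for 40 genes of the 6765 named genes on the array. A probe set is a group of short probes that together read 1 transcript. For the 15 genes with several probe sets, the one of highest mean log2 intensity over the 6 arrays was taken. All 40 genes were bright enough to be tested, in a table of 14400 probe sets and 5438 named genes. Another 6 probe sets named an EIF or EEF gene together with a second gene and were not used. EEF1A2, EEF2, EEF2K and EIF4EBP1 were not analysed here. For 1 gene, EEF1A1, the brightest probe set is one that Affymetrix placed on the array as a control of this pig transcript.

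The arrays came from the longissimus dorsi, the long back muscle, of 6 intact male pigs slaughtered at an age of 150 days. Large White, the breed labelled as control, and Northeastern Indigenous were each represented by 3 animals, and the labels describe a shared diet and housing. Whole-muscle RNA of every animal was hybridized to its own Affymetrix Porcine Genome Array, and the labels call the animals biological replicates. In such bulk tissue, fewer cells of a type and less RNA per cell cannot be told apart.

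The arrays of the Large White boars were less alike than the others. Across probe sets, r between Large White replicates 1 and 2 was 0.75, whereas replicate 2 reached 0.92 to 0.95 with the arrays of the other breed. On Large White replicates 1, 2 and 3, 8 fat-cell genes lay at a median of 4.86, 0.05 and 3.28 log2 units from the Northeastern Indigenous mean, and 9 muscle-fibre genes at -3.58, -0.14 and -0.41. On the Northeastern Indigenous arrays these medians ran from -0.39 to 0.59 and from -0.16 to 0.16. All 9 muscle genes were lowest on Large White replicate 1. Set against the Northeastern Indigenous mean they ran there from -5.95 log2 units in DES, a filament gene, to -0.68 in TNNC2, a fast troponin, which still read 13.95. The part of these cell types in the differences below was not tested. Where a difference depends on these arrays, its value against Large White replicate 2 by itself is given.

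No translation factor gene passed the test between the breeds. Of the 40 genes 25 had a positive difference, Northeastern Indigenous minus Large White, and 15 a negative one. Their median difference was 0.08 log2 units, against 0.09 over all 5438 named genes tested, after quantile normalization, which gives every array the same distribution. The median of the 40 moved with the scaling of the arrays, to 0.19 as deposited and 0.33 with arrays centred on their medians, where all named probe sets tested had medians of 0.02 and 0.16 (0.11 after quantile normalization). The lowest difference was -1.19, in EIF2AK2, and the highest 0.95, in EIF2B3. Limma called 0 of the 40 genes at a Benjamini-Hochberg adjusted p under 0.05, as it called 0% of all named genes. The smallest adjusted p among the 40 was 0.224.

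Below that threshold, the genes with an unadjusted p under 0.05 were 5 with higher values in Northeastern Indigenous boars (EIF2B3, EIF2D, EIF3I, EIF4G1 and EIF4G3) and 1 with lower values (EIF2AK2). These are 12.5% and 2.5% of the members. Over all named genes 9.42% were higher and 11.3% lower by the same rule. The breeds did not overlap in 9 members that were higher in all Northeastern Indigenous boars, or 22.5%, and in 2 that were lower, or 5%. Among all named genes these shares were 15.9% and 12.4%. These shares rest on 1 to 9 genes, and their distance from the background was not tested. Overlap was read after quantile normalization. In the deposited intensities EIF1, EIF2D, EIF4A2 and EIF5A, which are among the 9, overlapped between breeds. The background share was not computed on that scale.

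**Figure D1:**
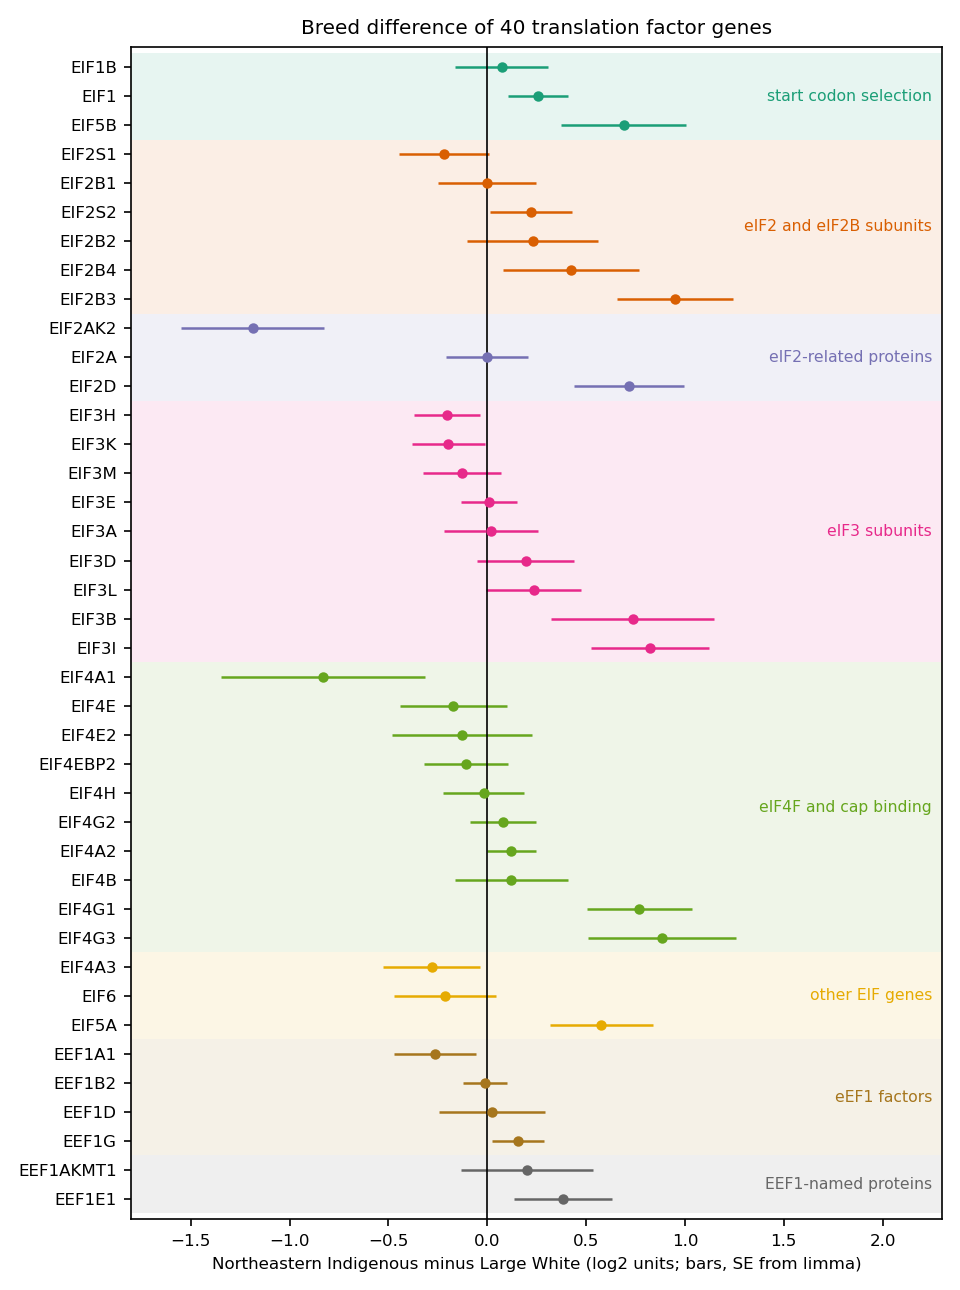
Breed difference of each of the 40 genes, Northeastern Indigenous minus Large White, in log2 units (points) with limma's SE (bars), coloured by role. Most points lie within 0.5 of 0, with EIF2AK2 at -1.19 and EIF2B3 at 0.95 as the extremes.

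EIF2AK2 encodes PKR, a kinase that double-stranded RNA activates, that interferon induces, and that blocks initiation by phosphorylating the alpha subunit of eIF2. Its log2 intensities were 9.48, 8.66 and 8.93 on Large White replicates 1 to 3 and 7.45, 7.64 and 8.42 on Northeastern Indigenous replicates 1 to 3. Every Northeastern Indigenous array read below every Large White array. The difference was -1.19 ± 0.36 (SE; limma adjusted p = 0.224), or 0.439 times the Large White level. With Large White replicate 2 as the single Large White array it was -0.82, and it stayed between -1.48 and -0.96 when any 1 array was left out.

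Genes that interferon induces were read beside EIF2AK2. All 7 tested of 9 listed (ISG15, MX1, OAS1, GBP1, IFIT1, IFIT3 and IRF1) had negative differences without overlap between breeds. Their median was -1.63 log2 units, with 0 called by limma at an adjusted p under 0.05. Of all named genes tested, 12.4% were lower without overlap. MX2, also listed, was too dim to be tested. Its breeds overlapped, with a Large White mean of 5.12 and a Northeastern Indigenous mean of 5.22. On Large White replicates 1, 2 and 3 this list lay 1.69, 2.09 and 1.10 above the Northeastern Indigenous mean. Large White replicate 2 was the highest array for this list, while its fat-cell list stood at 0.05. Single genes varied in this order. Among the Large White boars EIF2AK2 was lowest on replicate 2, as were GBP1 (10.83) and IRF1 (8.93) of the list. ISG15, MX1 and OAS1 were highest there, and IFIT1 and IFIT3 lay between. On Northeastern Indigenous arrays the list ran from -0.56 to 0.44, and both it and EIF2AK2 were highest on replicate 3. Leukocyte markers, 7 tested of 10, lay at 2.31, 0.92 and 2.32 on the Large White arrays and from -0.34 to 0.70 on the others. Their part in the EIF2AK2 difference was not tested.

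The kinase acts on eIF2 and through it blocks the exchange factor eIF2B, and no gene of either passed the test. EIF2S1, the phosphorylated alpha subunit of eIF2, read 11.98, 11.49 and 11.68 in Large White boars and 11.43, 11.47 and 11.59 in Northeastern Indigenous boars. The groups overlapped, and the difference was -0.22 ± 0.23 (SE). EIF2S2, the beta subunit, read 12.97, 13.67 and 13.30 against 13.61, 13.51 and 13.48. These overlapped too, with a difference of 0.22 ± 0.21. The 6 genes for eIF2 and eIF2B subunits had a median of 0.23, with 5 positive and 1 negative. It was 0.0377 without Large White replicate 1, 0.46 without replicate 2 and -0.14 against replicate 2 by itself.

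Within eIF2B, the factor that returns eIF2 to its GTP form, the gamma subunit was the only 1 of 4 measured whose breeds did not overlap. EIF2B3 read 8.78, 9.39 and 8.84 on the Large White arrays and 9.67, 9.99 and 10.20 on the Northeastern Indigenous arrays. The breeds did not overlap, and the difference was 0.95 ± 0.29 (SE; limma adjusted p = 0.225), or 1.93 times the Large White level. It was 0.565 against Large White replicate 2 by itself. EIF2B1, EIF2B2 and EIF2B4, which encode the alpha, beta and delta subunits, differed by 0.00 ± 0.25, 0.23 ± 0.33 and 0.42 ± 0.34, all with overlap. Against Large White replicate 2 by itself these 3 were at -0.16, -0.37 and -0.23, opposite in sign to EIF2B3. No test compared the subunits with each other.

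EIF2A and EIF2D carry eIF2 in their names but encode separate proteins that can bring tRNA to the ribosome. EIF2D read 7.80, 7.73 and 7.47 in Large White boars and 8.41, 8.01 and 8.73 in Northeastern Indigenous boars. All 3 Northeastern Indigenous values were higher, with a difference of 0.72 ± 0.28 (SE; limma adjusted p = 0.250), and 0.66 against Large White replicate 2. As deposited, EIF2D read 258 on Large White replicate 1 and 251 on Northeastern Indigenous replicate 2, so the breeds overlapped on that scale. EIF2A read 11.94, 12.32 and 12.13 against 12.04, 12.04 and 12.30 on its brightest probe set, with overlap and a difference of -0.003 ± 0.21.

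Messages that report on eIF2 phosphorylation gave mixed values. Of the 10 listed genes of this stress response 7 were tested, 5 with positive and 2 with negative differences, a median of 0.61 and 0 called by limma. ATF4, the transcription factor whose translation rises under the stress, differed by 0.25 ± 0.24 (SE) and ASNS, its target in asparagine synthesis, by 0.74 ± 0.47. Large White replicate 2 lay above the Northeastern Indigenous mean in both, by 0.12 in ATF4 and 0.28 in ASNS. PSAT1, a serine synthesis enzyme, read 14.00, 9.70 and 12.52 on Large White replicates 1, 2 and 3, and 8.64 to 10.13 on the others. Its high values lay on the 2 arrays with high fat-cell genes. The median of the list on Large White replicates 1, 2 and 3 was -0.79, 0.12 and -0.21 from the Northeastern Indigenous mean.

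The 9 measured subunits of eIF3, the multisubunit scaffold of initiation, had differences on both sides of 0. Their median difference was 0.02 log2 units, with 6 positive and 3 negative, and the medians of the single arrays lay between -0.09 and 0.13 of the Northeastern Indigenous mean. EIF3E, a subunit shared with other regulatory complexes, read 13.68, 13.54 and 13.61 in Large White boars and 13.68, 13.63 and 13.55 in Northeastern Indigenous boars. Its groups overlapped fully. The EIF3E difference was 0.01 after quantile normalization, 0.33 as deposited and 0.47 after median centring. EIF3A, the scaffold, differed by 0.02 ± 0.24 (SE), EIF3D by 0.19 ± 0.25, EIF3L by 0.24 ± 0.24, EIF3M by -0.13 ± 0.20, and EIF3K by -0.20 ± 0.19. EIF3H read 13.74, 13.96 and 13.68 against 13.39, 13.65 and 13.73, a difference of -0.20 ± 0.17. All 6 overlapped between breeds.

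The remaining subunits, EIF3B and EIF3I, form one module with EIF3G at the mRNA entry side of the ribosome. EIF3I read 11.32, 12.15 and 11.55 in Large White boars and 12.36, 12.24 and 12.88 in Northeastern Indigenous boars. The groups did not overlap, with a difference of 0.82 ± 0.30 (SE; limma adjusted p = 0.240), or 1.77 times the Large White level. EIF3B read 7.92, 9.48 and 8.56 against 9.34, 9.28 and 9.55. Large White replicate 2 lay inside the Northeastern Indigenous range, and replicates 1 and 3 lay below it, for a difference of 0.74 ± 0.41 (SE). Against replicate 2 by itself EIF3I was at 0.34 and EIF3B at -0.09.

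The cap-binding genes had differences on both sides of 0, and none passed the test. The 10 genes had a median difference of 0.03, with 5 positive and 5 negative. EIF4G1, the main scaffold that joins the cap-binding protein to the helicase, read 9.62, 10.26 and 9.83 in Large White boars and 10.66, 10.62 and 10.75 in Northeastern Indigenous boars. The breeds did not overlap. The difference was 0.77 ± 0.27 (SE; limma adjusted p = 0.232), or 1.70 times the Large White level, and 0.41 against Large White replicate 2 by itself.

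EIF4G3, the second such scaffold, read 10.01, 11.43 and 10.67 in Large White boars and 11.67, 11.61 and 11.48 in Northeastern Indigenous boars. The highest Large White array and the lowest Northeastern Indigenous array were 11.43 and 11.48, so the groups parted by little. The difference was 0.88 ± 0.37 (SE; limma adjusted p = 0.265), and 0.15 against Large White replicate 2. EIF4G2, a related protein without the site for the cap-binding protein, read 13.84, 13.97 and 14.10 against 14.23, 13.81 and 14.10, with a difference of 0.08 ± 0.17.

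EIF4E and its inhibitor differed by less than their errors. EIF4E, which binds the cap, read 10.21, 9.99 and 10.58 in Large White boars and 10.22, 10.18 and 9.86 in Northeastern Indigenous boars. Its difference was -0.17 ± 0.27 (SE), or 0.10 against Large White replicate 2, and the groups overlapped. EIF4EBP2, an inhibitor of EIF4E that growth signalling through mTOR releases, differed by -0.11 ± 0.21, and its other 3 tested probe sets by -0.06 to 0.11. EIF4B and EIF4H, which stimulate the helicase, differed by 0.12 ± 0.29 and -0.02 ± 0.21.

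The helicase itself is encoded by a pair of close paralogs, EIF4A1 and EIF4A2, whose values differed in pattern. EIF4A1 read 11.91, 9.95 and 11.42 on Large White replicates 1, 2 and 3 and 10.45, 9.82 and 10.50 on the Northeastern Indigenous arrays. It was high on the 2 Large White arrays with bright fat-cell genes and within the Northeastern Indigenous range on the third. The difference was -0.83 ± 0.52 (SE; limma adjusted p = 0.368), and 0.31 with Large White replicate 2 as the single array. EIF4A2 read 14.12, 14.28 and 14.26 against 14.30, 14.33 and 14.40. All Northeastern Indigenous values were higher, by 0.12 ± 0.12, and by 0.06 against Large White replicate 2. The EIF4A2 difference was 0.47 as deposited and 0.61 after median centring. On the deposited scale Large White replicate 2 read 25455, above 22579, 24377 and 23642 in Northeastern Indigenous boars, so the breeds overlapped. Hybridization of 1 paralog's transcripts to the other's probes was not tested, here or for EIF1 with EIF1B.

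**Figure D2:**
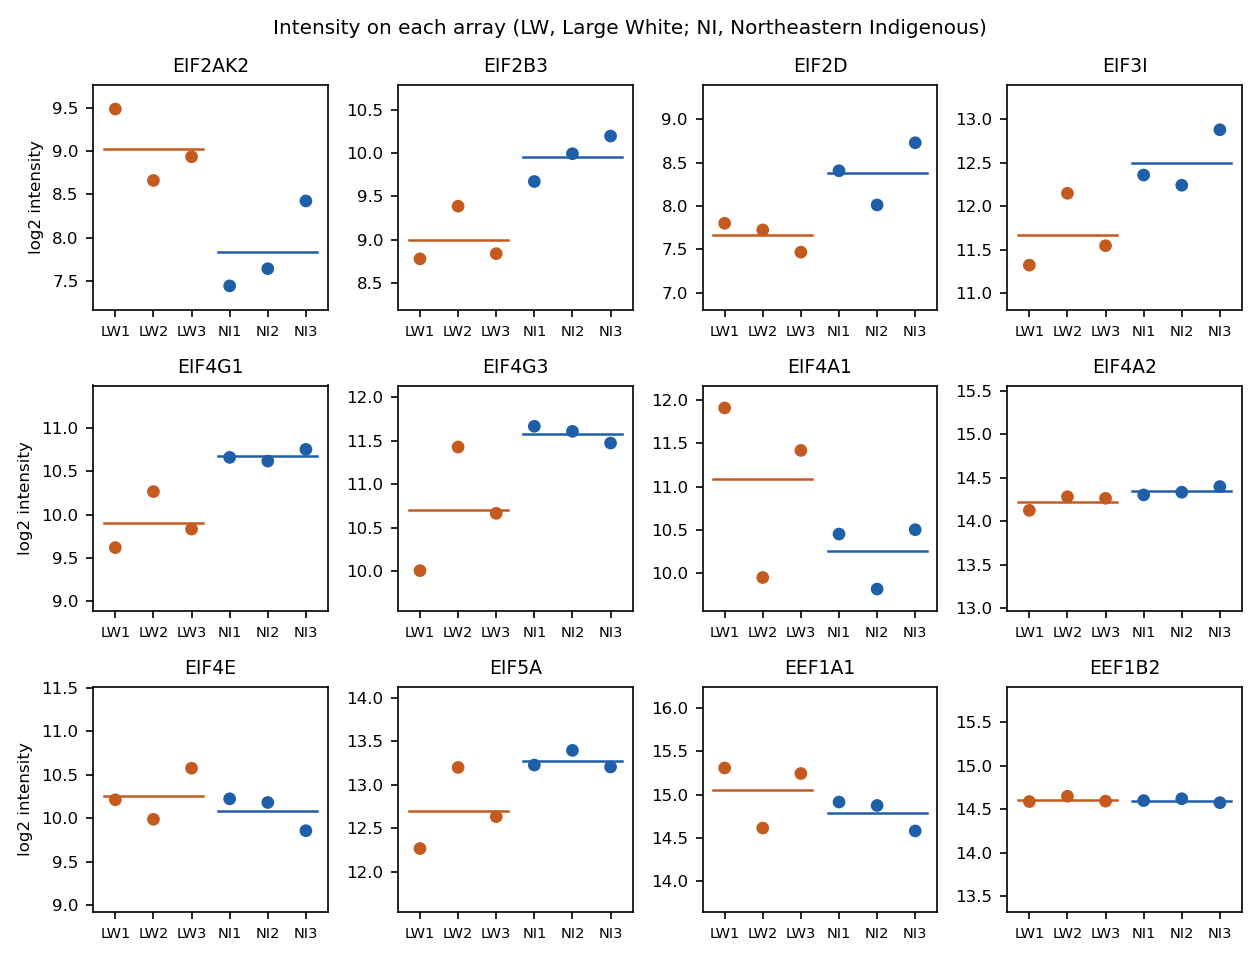
Log2 intensity of 12 members on each array, with Large White arrays (LW1 to LW3) in orange, Northeastern Indigenous arrays (NI1 to NI3) in blue, and lines at the breed means; each panel spans the same height. After quantile normalization EIF2AK2, EIF2B3, EIF2D and EIF4G1 part the breeds, and EIF3I, EIF4G3, EIF4A2 and EIF5A part them by little. In the deposited intensities EIF2D, EIF4A2 and EIF5A overlap between breeds. In EIF4A1 and EEF1A1 Large White replicate 2 sits within the Northeastern Indigenous range, and in EIF5A just below it.

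Start codon selection and subunit joining are carried out by EIF1, its paralog EIF1B and the GTPase EIF5B. EIF1 read 14.26, 14.71 and 14.65 in Large White boars and 14.77, 14.80 and 14.80 in Northeastern Indigenous boars. After quantile normalization the breeds did not overlap, with a difference of 0.25 ± 0.15 (SE; limma adjusted p = 0.356). It was 0.11 without Large White replicate 1 and 0.08 against replicate 2 by itself, and it was 0.56 as deposited and 0.70 after median centring. The deposited EIF1 values overlapped, with Large White replicate 2 at 36431, above 30924 to 32794 in Northeastern Indigenous boars. EIF5B read 9.85, 9.34 and 9.87 against 10.06, 10.23 and 10.85, without overlap, and differed by 0.69 ± 0.32 (limma adjusted p = 0.280). Large White replicate 2 was the lowest array here, and the difference against it was 1.03. EIF1B differed by 0.07 ± 0.23.

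EIF5A, the hypusine-bearing factor that helps ribosomes through stalling sequences, read 12.27, 13.20 and 12.63 in Large White boars and 13.23, 13.40 and 13.20 in Northeastern Indigenous boars. After quantile normalization Large White replicate 2 reached the lower edge of the Northeastern Indigenous values without entering them. As deposited, EIF5A read 10818 on that array, inside the Northeastern Indigenous values of 10149 to 11938. The difference was 0.58 ± 0.26 (SE; limma adjusted p = 0.276), and 0.08 against that array by itself. EIF6, which keeps the ribosomal subunits apart until needed, read 11.05, 10.84 and 10.56 against 10.44, 10.52 and 10.83, with overlap and a difference of -0.21 ± 0.26. EIF4A3, a helicase of the exon junction complex rather than of eIF4F, read 10.44, 10.14 and 10.11 against 9.82, 9.95 and 10.09, lower in all Northeastern Indigenous boars with a difference of -0.28 ± 0.24, or -0.19 against Large White replicate 2.

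The 4 elongation factor genes had a median difference of 0.01, with 2 positive and 2 negative. EEF1B2, EEF1D and EEF1G encode the eEF1B exchange complex. EEF1B2 read 14.59, 14.65 and 14.59 in Large White boars and 14.60, 14.62 and 14.58 in Northeastern Indigenous boars, a difference of -0.01 ± 0.11 (SE). All 6 arrays lay within a narrow range. EEF1G read 14.10, 14.34 and 14.19 against 14.38, 14.44 and 14.28, a difference of 0.15 ± 0.13. EEF1D read 12.63, 13.64 and 12.97 against 13.05, 13.15 and 13.12. Its mean difference was 0.02 ± 0.27, with Large White replicate 2 the brightest array and replicate 1 the dimmest.

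EEF1A1, the ubiquitous form of the tRNA carrier, read 15.31, 14.61 and 15.24 on Large White replicates 1, 2 and 3 and 14.91, 14.87 and 14.58 on the Northeastern Indigenous arrays. Large White replicates 1 and 3 were the highest and replicate 2 fell among the Northeastern Indigenous values. The difference was -0.26 ± 0.21 (SE; limma adjusted p = 0.461), and 0.18 against Large White replicate 2 by itself. Its deposited intensities were 28002, 33710 and 28406 in Large White boars and 34185, 34358 and 26255 in Northeastern Indigenous boars. On that scale Large White replicates 1 and 3 were below replicate 2, so the order of these arrays turned with the scaling.

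The elongation factor differences moved with the scaling of the arrays. For EEF1B2 the deposited intensities were 17007, 34432 and 19137 in Large White boars and 27945, 28900 and 26099 in Northeastern Indigenous boars, and its difference was 0.30 log2 units as deposited and 0.44 with arrays centred on their medians, against -0.01. The median of the 4 eEF1 genes was 0.01 after quantile normalization, 0.26 as deposited and 0.40 after median centring. For eIF3 it was 0.02, 0.15 and 0.29, and for the cap-binding genes 0.03, 0.12 and 0.26. Of the 40 members 31 had the same sign under all 3 scalings, among them EIF2AK2, EIF2B3, EIF2D, EIF3I, EIF4G1, EIF4G3 and EIF4A1.

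**Figure D3:**
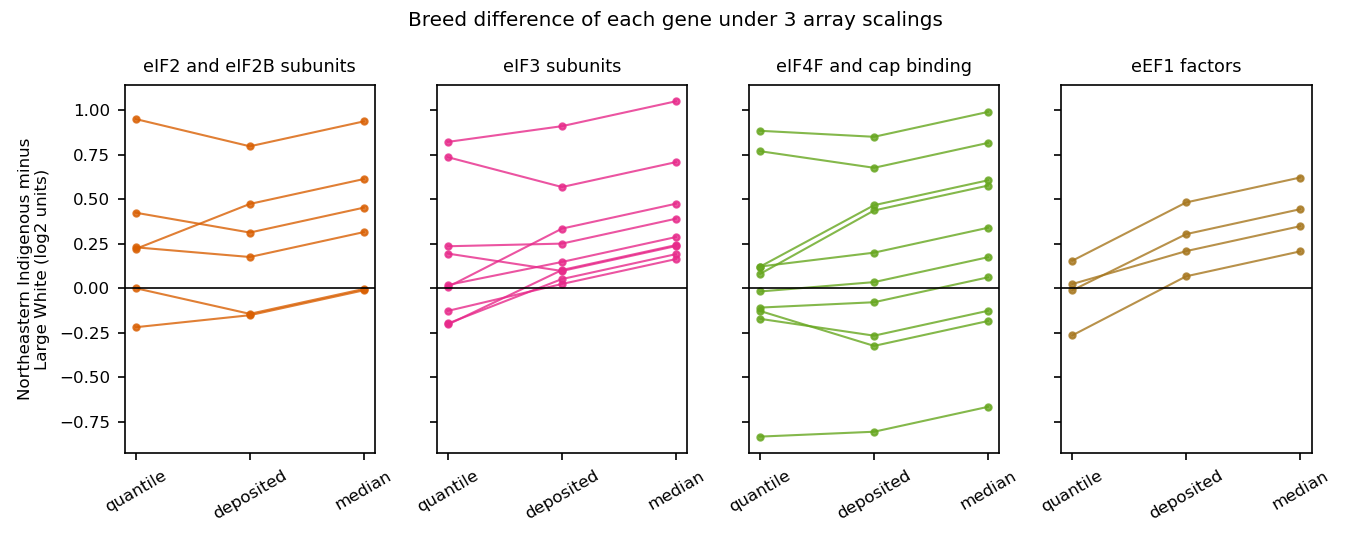
Breed difference of each gene of 4 groups, in log2 units, after quantile normalization, as deposited and after median centring; each line is 1 gene. Median centring adds the same amount to every deposited difference, so those 2 columns differ by a shift; between quantile and deposited values the eEF1 median goes from 0.01 to 0.26, and EIF4A1 is the lowest of the genes drawn under all 3 scalings.

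EEF1E1 and EEF1AKMT1 are named for eEF1 but act beside it, the first as a scaffold of the aminoacyl-tRNA synthetase complex and the second as a lysine methyltransferase of eEF1A. EEF1E1 read 10.53, 10.29 and 10.41 in Large White boars and 11.01, 10.51 and 10.86 in Northeastern Indigenous boars. The ranges overlapped by little, with Large White replicate 1 at 10.53 above Northeastern Indigenous replicate 2 at 10.51. The difference was 0.38 ± 0.25 (SE). EEF1AKMT1 read 10.15, 11.14 and 10.74 against 10.67, 11.24 and 10.70, and its difference of 0.20 ± 0.33 was smaller than its error.

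Among the factors are messages that in human cells begin with a terminal oligopyrimidine tract, through which mTOR controls their translation. The 7 measured (EEF1A1, EEF1B2, EEF1D, EEF1G, EIF3E, EIF3H and EIF4B) had differences from -0.26 to 0.15 with a median of 0.01, 4 positive and 3 negative. All 7 overlapped between breeds. The mixed signs held after quantile normalization only. As deposited the 7 differences ran from 0.07 in EEF1A1 to 0.48 in EEF1G. After median centring they ran from 0.21 to 0.62 in the same genes. All named probe sets had medians of 0.02 and 0.16 under these scalings. These arrays measure the amount of a message and not its translation.

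Probe sets of the same gene did not always give the same answer. Of the 12 members with several tested probe sets, 8 had the same sign in all of them. EIF4E2, a cap-binding protein that represses rather than starts translation, read 8.80, 7.69 and 8.75 in Large White boars and 8.19, 8.25 and 8.41 in Northeastern Indigenous boars on its brightest probe set, a difference of -0.13 ± 0.35 (SE), or 0.60 against Large White replicate 2. Its second probe set read 6.47, 5.35 and 6.10 against 7.19, 7.16 and 8.01, with no overlap and a difference of 1.48 ± 0.41 (limma adjusted p = 0.224). EIF2A gave -0.003 on its brightest probe set and 0.88 ± 0.29 on its second, where Large White boars read 7.59, 8.42 and 7.85 and Northeastern Indigenous boars 8.77, 8.89 and 8.83.

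In EEF1A1 the other 3 probe sets differed by 0.17 ± 0.34, 0.49 ± 0.32 and -0.99 ± 0.56 (SE). EIF5A gave 0.58 and 0.75, EIF1 0.25 and 0.78, EEF1E1 0.38 and 0.57, and EIF3M -0.13 and -0.70. The additional probe sets of EIF5B gave 0.42 and 0.05 against 0.69, and both overlapped between breeds. The second probe sets of EIF5A and EIF3M overlapped too, while those of EIF1 and EEF1E1 did not. Which transcript form each probe set reads is not given in the sources used here.

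**Figure D4:**
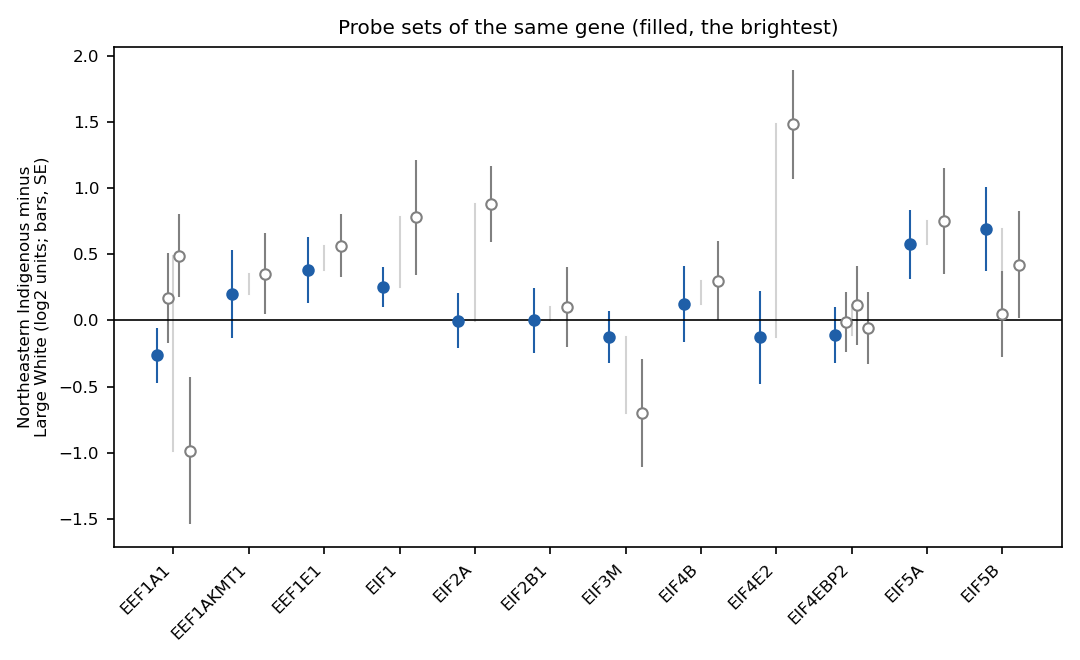
Breed difference in log2 units with limma's SE for every tested probe set of the 12 members that had several; filled points mark the brightest probe set, which represents the gene. The probe sets of EIF4E2 span -0.13 to 1.48 and those of EEF1A1 -0.99 to 0.49, while those of EIF4EBP2 lie between -0.11 and 0.11.

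Genes around the factors were read for comparison. Of 25 listed genes of mTOR and growth signalling to translation 11 were tested, 6 with positive and 5 with negative differences, a median of 0.05 and 0 called by limma. Within it, PABPC1 and PABPC4, poly(A)-binding proteins that contact eIF4G, went opposite ways. PABPC1 read 13.69, 11.75 and 13.11 in Large White boars and 11.70, 11.96 and 11.49 in Northeastern Indigenous boars. PABPC4 read 9.76, 12.68 and 11.55 against 12.63, 12.38 and 12.54. In both, Large White replicates 1 and 3 departed from the other 4 arrays, and the differences were -1.13 ± 0.48 and 1.18 ± 0.66 (SE). Large White replicate 2 lay 0.04 and 0.16 above the Northeastern Indigenous mean in them.

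Mitochondrial translation factors, by contrast with the cytosolic ones, had positive differences in all 5 tested of 8 listed, at a median of 0.83 and with 0 called by limma. TUFM, the mitochondrial counterpart of eEF1A, read 10.06, 10.42 and 9.57 in Large White boars and 10.91, 11.00 and 11.31 in Northeastern Indigenous boars, a difference of 1.06 ± 0.30 (SE; limma adjusted p = 0.224). TSFM, its exchange factor, differed by 0.83 ± 0.23 and GFM1, which moves the mitochondrial ribosome along, by 0.79 ± 0.25. In these 3 genes the breeds did not overlap, and of all named genes 15.9% were higher without overlap. MTRF1 and MRRF, also tested, overlapped between breeds and differed by 0.88 ± 0.51 and 0.19 ± 0.28. In MTRF1 Large White replicate 2 lay 0.18 above the Northeastern Indigenous mean. The median of the list on Large White replicates 1, 2 and 3 was -0.95, -0.65 and -0.99 from the mean of the other breed. The difference between mitochondrial and cytosolic factors was not tested. Of the 20 listed cytosolic aminoacyl-tRNA synthetases 15 were tested, 12 with positive and 3 with negative differences, a median of 0.16 and 0 called.

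**Figure D5:**
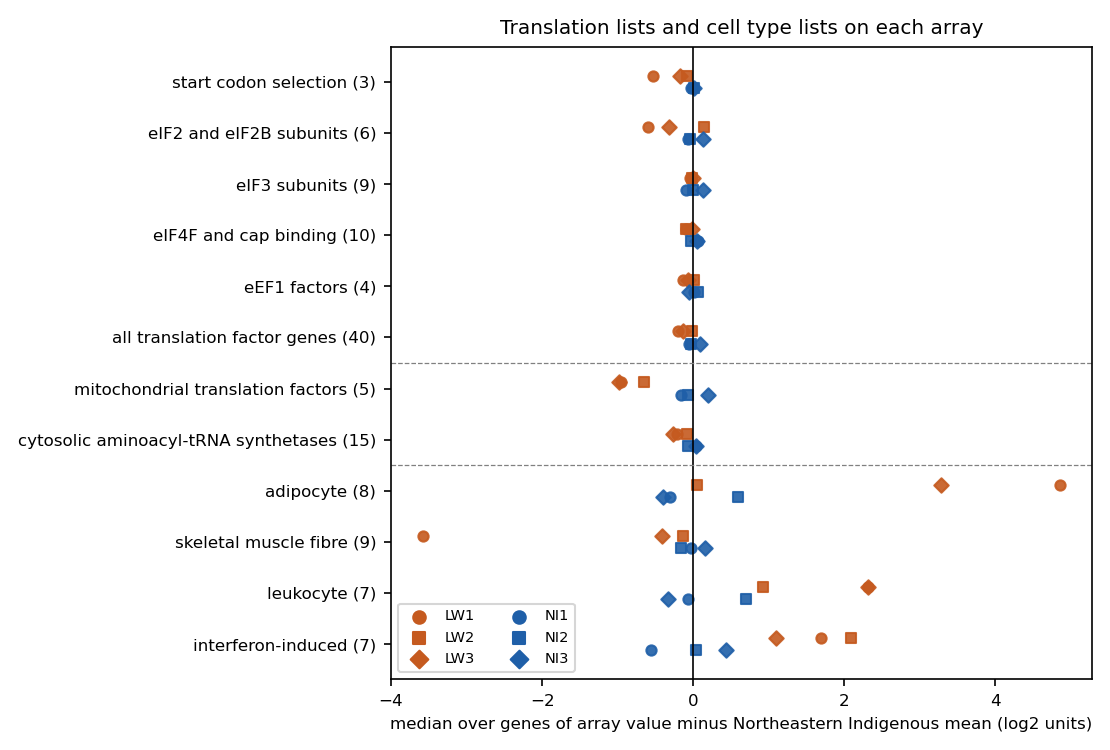
Median over the genes of each list of the array value minus the Northeastern Indigenous mean, in log2 units, with Large White arrays in orange, Northeastern Indigenous arrays in blue and the number of genes tested in brackets. The cytosolic factor groups drawn stay between -0.60 and 0.14 on the 6 arrays, while fat-cell genes reach 4.86 on Large White replicate 1.

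The count of called members depended on Large White replicate 2. Without that array limma called 9 of the 40 genes at an adjusted p under 0.05. Higher in Northeastern Indigenous boars were EIF4G3 (1.25 ± 0.26, SE), EIF3B (1.15 ± 0.27), EIF2B3 (1.14 ± 0.25), EIF3I (1.06 ± 0.25), EIF4G1 (0.95 ± 0.22) and EIF5A (0.83 ± 0.19). Lower were EIF4A1 (-1.40 ± 0.30), EIF2AK2 (-1.37 ± 0.36) and EEF1A1 (-0.48 ± 0.14). They make 15% and 7.5% of the members, where 16.9% of all named genes were called higher and 17.1% lower in that fit. It sets Large White replicates 1 and 3, whose fat-cell lists lay at 4.86 and 3.28, against the Northeastern Indigenous arrays, so breed and what sets those 2 arrays apart cannot be told apart in it.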

How the data were processed

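The deposited table holds linear intensities, 1 value on each array for each of 24123 probe sets of the Affymetrix Porcine Genome Array. The software that made these intensities is not given in the sources used here. Trimmed means of the arrays lay between 500.1 and 500.2, so they had been brought to 1 scale. No detection calls were used, and with so few arrays their number limits the precision. The members, lists and tests were chosen with earlier results of these data known.

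Of the control probe sets 123 were left out and 1, which carries the symbol EEF1A1, was kept. Names came from the platform annotation, and 39 of the 40 members had their gene identifier in RefSeq's Sscrofa11.1 gene list, with 0 symbols changed. The deposited intensities were taken as log2 and quantile normalized. The dimmest probe sets, under the 40th percentile by mean log2 value, were dropped, and the other 14400 entered limma (version 3.58.1, under R version 4.3.3; lmFit, eBayes with an intensity trend, two-sided, 4 residual degrees of freedom), and p-values were Benjamini-Hochberg adjusted over all of them. Limma called 0 probe sets, and 2705 had an unadjusted p under 0.05. The fit was tested on simulated data.

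Every member was counted in a role group. Values on every array were given for 15 set genes where measured, for the members of smallest p and highest mean in each group, and for members with an unadjusted p under 0.05 without overlap, with further members added after their values were seen. Errors are SEs of limma's difference over 3 animals per breed. In the fit without Large White replicate 2 they rest on 2 Large White and 3 Northeastern Indigenous animals. The labels give no scan or slide batch.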

Additional observations from a re-analysis of the deposited data

How the results depend on the processing

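Reading EEF1A1 without its control probe set was an alternative chosen after seeing the data. The EEF1A2 to EEF1A1 ratio that had been planned could not be given. The count of 0 called members held under every alternative except the leave-one-out fits, which gave 0 to 9 (9 without Large White replicate 2), and was 0 with the replicate block too. Pairs of arrays with the same number deviated from their breed means with correlations of -0.02, -0.16 and -0.11. None was positive, and so few arrays cannot settle whether the numbers pair animals. Over all probe sets the count of 0 became 1 with median centring, 1 when a gene's probe sets were averaged, and 0 to 4420 with 1 array left out. As deposited, the medians were 0.19 for all factors, 0.15 for eIF3, 0.12 for cap-binding and 0.26 for eEF1 genes; median centring gave 0.33, 0.29, 0.26 and 0.40, and 0.38 for eIF2 and eIF2B. All named probe sets had medians of 0.11, 0.02 as deposited and 0.16 with median centring. The mean of all probe sets gave 0.10 for cap-binding genes, leaving out Large White replicates 1 and 3 gave -0.14 for eIF2 and eIF2B, and eEF1 stood at 0.089 with another EEF1A1 probe set. With 1 array left out the medians ran from 0.035 to 0.19 for all factors, from 0.0377 (without Large White replicate 1) to 0.46 (without replicate 2) for eIF2 and eIF2B, from -0.0264 to 0.12 for eIF3, and from -0.0808 to 0.11 for eEF1 genes.

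Of 601 single-gene values under alternatives, 534 kept sign and side of the threshold, 9 gained a call and 58 turned sign; 15 of the 40 genes kept their sign throughout. As deposited, the sign turned in EIF2B1 (-0.14), EIF2A (0.0912), EIF3H (0.10), EIF3K (0.0517), EIF3M (0.024), EIF4H (0.0345), EEF1A1 (0.0672) and EEF1B2 (0.30). With median centring it turned in EIF2B1 (-0.0039), EIF2A (0.23), EIF3H (0.24), EIF3K (0.19), EIF3M (0.16), EIF4EBP2 (0.0613), EIF4H (0.17), EEF1A1 (0.21) and EEF1B2 (0.44). The mean of all probe sets turned EIF2A (0.44) and EIF4E2 (0.68), and another probe set EEF1A1 (0.17). Without Large White replicates 1 and 3 the lone Large White array is assumed to vary like the others, and the turned values were EIF1B (-0.27), EIF2S1 (0.0089), EIF2S2 (-0.13), EIF2B1 (-0.16), EIF2B2 (-0.37), EIF2B4 (-0.23), EIF3B (-0.0877), EIF3L (-0.0794), EIF3M (0.0193), EIF4E (0.10), EIF4E2 (0.60), EIF4A1 (0.31), EIF4B (-0.35), EEF1A1 (0.18), EEF1D (-0.53) and EEF1AKMT1 (-0.26). With 1 array left out, the genes whose sign turned ran from -0.0465 to 0.24 in EIF1B, -0.10 to 0.0783 in EIF2B1, -0.10 to 0.0903 in EIF2A, -0.13 to 0.12 in EIF3A, -0.0264 to 0.0424 in EIF3E, -0.49 to 0.0678 in EIF4E2, -0.0106 to 0.20 in EIF4G2, -0.0912 to 0.36 in EIF4B, -0.10 to 0.0289 in EIF4H, -0.023 to 0.0077 in EEF1B2, -0.20 to 0.30 in EEF1D and -0.0633 to 0.43 in EEF1AKMT1. The cause of these changes was not tested.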
